A study of Mus musculus with 9 samples.

Results

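The genes described here are the cytosolic heat shock chaperones of mouse liver and Hsf1, the transcription factor that drives their induction. They were taken by symbol from the deposited expression tables as Hsf1, Hspa1a, Hspa1b, Hspa8, Hsph1, Dnajb1, Hsp90aa1, Hsp90ab1, Hspb1 and Bag3. They are 10 of the 57010 genes in the table, and all 10 were among the 13686 genes that had enough counts to be tested. Liver RNA of male BALB/c mice, an inbred albino strain, was sequenced in 9 libraries, 3 in each of 3 groups. The 3 AT3 and the 3 CPT libraries carry the same treatment label, an acute injury of the liver brought on by cisplatin, a DNA-crosslinking platinum drug that the design text calls DDP. The 3 CON libraries are labelled as untreated. The labels do not spell out AT3, while the study's title names atractylenolide III, a sesquiterpene lactone of Atractylodes plants, as the compound tested against the injury. No allele beyond the strain is named, and the sources used here give neither the animals' age nor the doses, the route or the time of sampling. Nothing in the labels says that libraries of a group came from separate animals, so a p-value reflects only how much these libraries vary, which may be technical.

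Heat shock proteins bind unfolded stretches of other proteins and help those proteins fold, stay soluble or be degraded. HSF1 is kept inactive by chaperones in unstressed cells, and when damaged proteins draw those chaperones away it assembles into trimers that bind heat shock elements, inverted repeats of a short unit in the promoters of the inducible chaperone genes. HSP70 proteins work in a cycle with J-domain proteins, which deliver clients and trigger ATP hydrolysis, and with nucleotide exchange factors, which release them, and HSP90 acts later on signalling proteins such as steroid receptors and kinases.

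Promoter sequences of 5 members are shown first, because the heat shock element is the feature that defines the inducible chaperones. Each is the 250 bases before the annotated start in RefSeq (GRCm38.p6), 5′ to 3′ on the gene's strand. Capitals mark 2 units of the heat shock element in a row, spelled GAANNTTC or TTCNNGAA, where N is any base, a pair of spellings that read the same on both strands. Hspa1a and Hspa1b, the stress-inducible HSP70 copies, are shown as a pair because they are nearly the same (chr17:34972157-34972406 and chr17:34959239-34959488, minus strand). Hspb1 (small heat shock protein HSP25 of the mouse, chr5:135887669-135887918, plus strand) and Bag3 (a co-chaperone, chr7:128523333-128523582, plus strand) are shown because one was lower and the other higher in the treated livers, and Hsph1 (HSP110, chr5:149636337-149636586, minus strand) as a chaperone gene with a match whose level was not called in any comparison.
Hspb1: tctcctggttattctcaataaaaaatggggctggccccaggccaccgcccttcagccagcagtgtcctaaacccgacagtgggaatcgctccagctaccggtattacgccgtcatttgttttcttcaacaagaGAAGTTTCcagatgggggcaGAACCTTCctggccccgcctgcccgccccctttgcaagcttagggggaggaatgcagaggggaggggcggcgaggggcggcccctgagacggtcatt
Hspa1b: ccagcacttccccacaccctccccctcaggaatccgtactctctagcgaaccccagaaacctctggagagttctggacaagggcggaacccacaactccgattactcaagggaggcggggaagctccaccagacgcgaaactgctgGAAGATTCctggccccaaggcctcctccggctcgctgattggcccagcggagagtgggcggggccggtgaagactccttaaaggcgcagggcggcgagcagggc
Hspa1a: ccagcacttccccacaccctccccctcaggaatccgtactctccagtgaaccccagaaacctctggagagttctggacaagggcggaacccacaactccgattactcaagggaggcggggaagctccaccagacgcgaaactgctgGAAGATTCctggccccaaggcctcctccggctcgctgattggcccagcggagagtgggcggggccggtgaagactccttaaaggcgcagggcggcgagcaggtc
Hsph1: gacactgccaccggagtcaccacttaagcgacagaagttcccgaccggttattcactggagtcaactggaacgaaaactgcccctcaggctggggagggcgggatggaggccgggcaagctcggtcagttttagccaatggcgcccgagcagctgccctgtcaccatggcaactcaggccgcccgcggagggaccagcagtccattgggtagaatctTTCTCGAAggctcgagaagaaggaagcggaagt
Bag3: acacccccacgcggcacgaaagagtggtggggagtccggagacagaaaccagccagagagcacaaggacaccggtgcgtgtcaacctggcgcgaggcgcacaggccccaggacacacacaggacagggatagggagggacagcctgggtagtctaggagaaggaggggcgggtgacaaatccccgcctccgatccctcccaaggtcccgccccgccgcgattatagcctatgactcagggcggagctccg

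The Hspb1 promoter held 2 matches, whose first bases lay at -117 and -97 relative to the start. Hspa1a and Hspa1b each held 1, with its first base at -104, and these 250-base stretches differed at 3 bases (98.8% identity). Hsph1 held 1 match, at -33 relative to the first of its 2 annotated starts. No match to these letters lay in the windows of Bag3 or of the 2 annotated starts of Dnajb1. The window of the second Dnajb1 start (chr8:83608298-83608547) lies inside the gene, so only the first is sequence upstream of the gene. For comparison, 12.8% of 32851 RefSeq promoter windows of the same length held a 2-unit match and 0.466% a match to 3 units in a row, GAANNTTCNNGAA or TTCNNGAANNTTC, and none of the members' windows held 3 units in a row. Promoters of 6 of the 10 members were found in the table used. Hsf1, Hspa8, Hsp90aa1 and Hsp90ab1 were not matched. A match here describes the letters and is not evidence of binding.

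The libraries held 21485021 to 28480479 estimated counts. Values below are CPM, a gene's counts relative to its library's total after scaling by the trimmed mean method (TMM), unless TPM, the authors' length-corrected measure, is named. Levels are compared between genes on TPM alone. Mitochondrially encoded transcripts took 9.795% to 11.43% of counts in AT3, 11.15% to 16.32% in CPT and 25.83% to 36.82% in CON, and TMM factors were 1.046 to 1.128 in AT3, 1.065 to 1.129 in CPT and 0.7261 to 0.9631 in CON. On log2(TPM + 1) the median of all tested genes lay at 0.29 for CPT against CON and 0.32 for AT3 against CON, where the CPM fit had -0.02 and -0.04. Of the 9 tested hepatocyte markers, 2 were higher and 3 lower in CPT than in CON (5 and 0 on log2(TPM + 1)), and 4 were higher in AT3 than in CPT (1 on log2(TPM + 1)), with summed levels of 82800 to 89000 CPM in AT3, 53900 to 71000 CPM in CPT and 73300 to 78400 CPM in CON. Of all tested genes, 30% were higher and 30.8% lower in CPT than in CON, and 2.51% were higher in AT3 than in CPT.

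Levels of the chaperone transcripts spanned a wide range in each group. Hspa8, the constitutive HSP70 (HSC70), had the highest level, with 180.4, 202.3 and 182.8 TPM in AT3, 160.8, 208.1 and 171.6 TPM in CPT, and 104.6, 123.5 and 81.83 TPM in CON. Hsp90ab1, the constitutive HSP90, came next at 104.8, 109 and 101.8 TPM in AT3, 74.02, 85.87 and 104 TPM in CPT, and 69.21, 93.67 and 60.01 TPM in CON. The ranges of these 2 genes overlapped between CON libraries, yet Hspa8 exceeded Hsp90ab1 within each of the 9 libraries. Hsp90aa1, the stress-inducible HSP90, stood at 15.5 ± 0.979 TPM in AT3, 17 ± 3.4 TPM in CPT and 18.3 ± 2.27 TPM in CON (mean ± SD, n = 3 libraries each, as throughout).

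The lower part of the order differed between groups. In AT3, Hsf1 (4.5 ± 0.229 TPM), Bag3 (3.91 ± 0.292), Dnajb1 (3.49 ± 0.169), Hspb1 (2.76 ± 0.919) and Hsph1 (2.03 ± 0.212) followed, and neighbours from Bag3 to Hsph1 overlapped. In CPT the order was Hspb1 (5.34 ± 1.49 TPM), Hsf1 (4.69 ± 0.638), Bag3 (3.6 ± 0.514), Dnajb1 (2.93 ± 0.193) and Hsph1 (1.8 ± 0.182), with overlap between Hspb1 and Hsf1 and between Bag3 and Dnajb1. In CON it was Hspb1 (8.87 ± 1.53 TPM), Hsf1 (4.1 ± 0.615), Dnajb1 (2.22 ± 0.431), Hsph1 (1.69 ± 0.569) and Bag3 (1.69 ± 0.15), and the last 3 overlapped with their neighbours. Counted from the highest, Hspb1 held place 7 of 10 in AT3 and place 4 in CPT and CON, and Bag3 place 5 in AT3, 6 in CPT and 8 in CON. The inducible HSP70 genes came last in every group, Hspa1b at 0.567 ± 0.0929 TPM in AT3, 0.8 ± 0.28 in CPT and 1.48 ± 0.146 in CON, and Hspa1a at 0.0933 ± 0.0208 TPM in AT3, 0.11 ± 0.0557 in CPT and 0.13 ± 0.06 in CON.

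**Figure D1:**
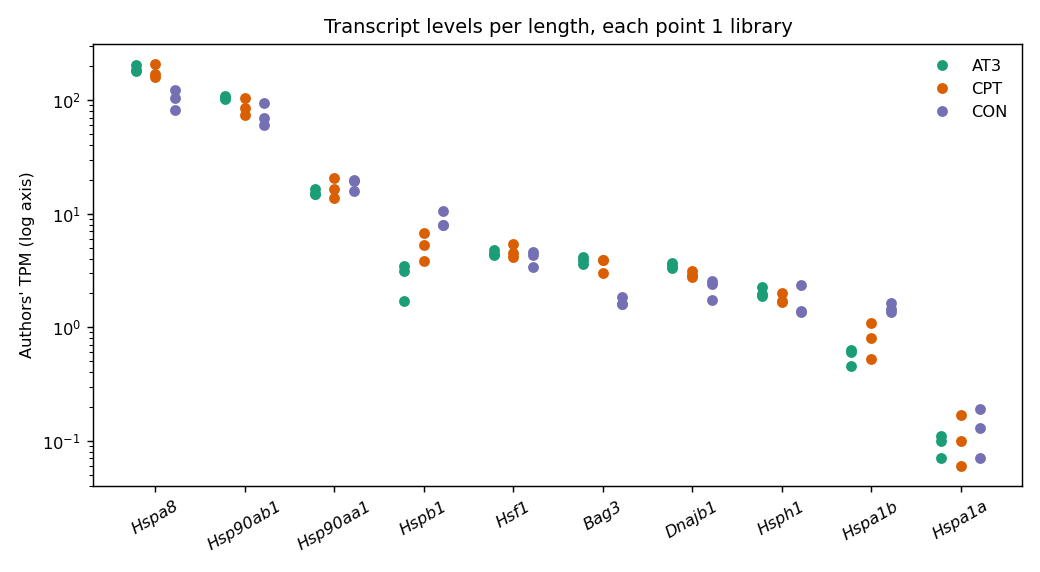
TPM (log axis) of the 10 genes in each of the 9 libraries, ordered by level, with 1 point per library in AT3, CPT and CON. Hspa8 and Hsp90ab1 lie highest in every group, and Hspb1 and Bag3 change places between CON and AT3.

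CPT against CON sets the livers injured with cisplatin beside untreated ones. In CPT, Bag3 was higher, by 1.41-fold, and Hspa1b, Hspb1, Hsp90aa1 and Hsp90ab1 were lower, by 2.84-fold, 2.53-fold, 1.62-fold and 1.26-fold. These 5 of 10 genes passed edgeR's quasi-likelihood test at an adjusted p below 0.05, beside 60.8% of all 13686 tested genes (30% higher, 30.8% lower), so the share of members called was below that of all genes. The median log2 fold change of the 10 genes was -0.30, and that of all tested genes -0.02. Among the calls, 2 of 10 (Hspa1b and Hspb1) were at least 1 on the log2 scale, beside 28.8% of all genes. In 9 of 10 genes, all but Hspa1a, every CPT value lay on one side of the CON values, as in 64.2% of all genes. These counts describe the 10 genes and were not tested against other genes.

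**Figure D2:**
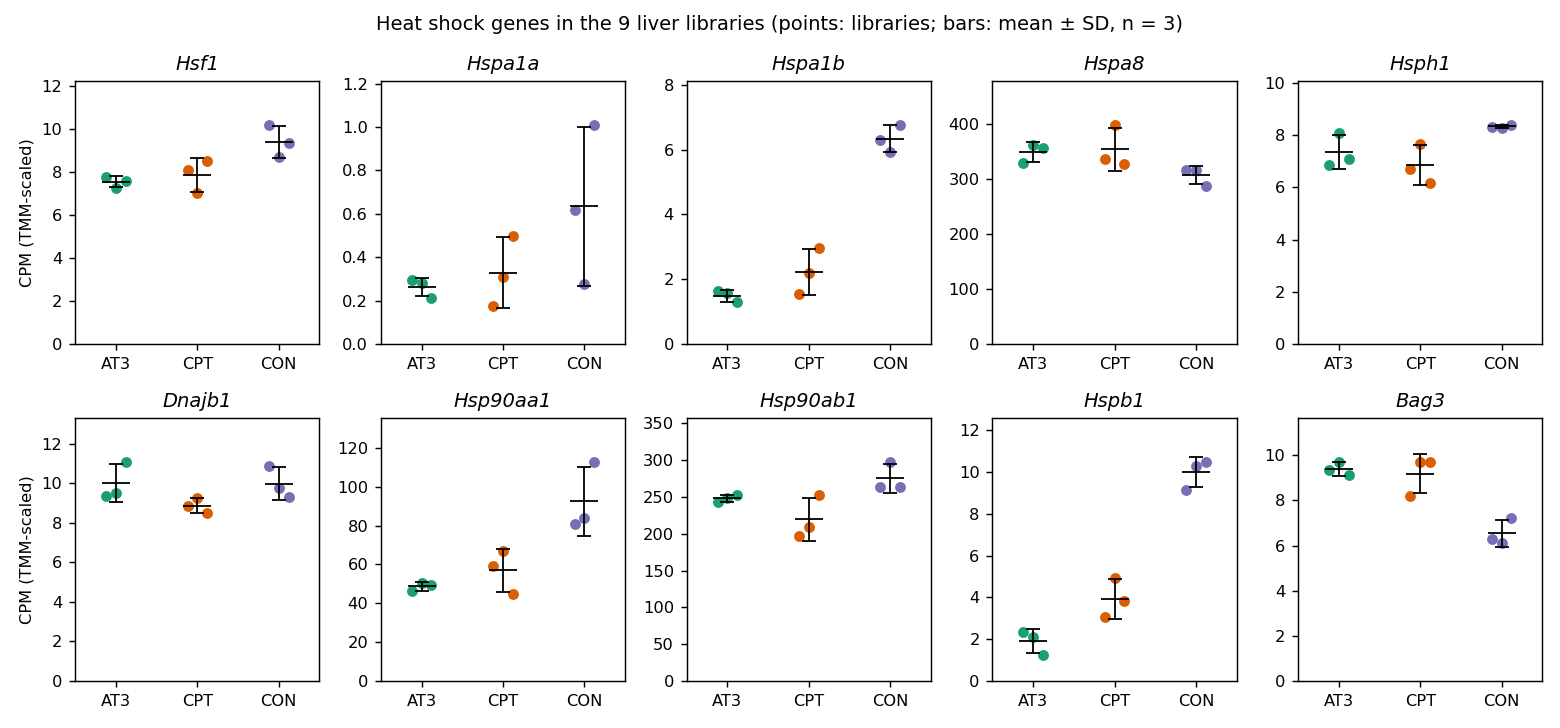
TMM-scaled CPM of each gene in the 9 libraries (points), with the mean ± SD of the 3 libraries of AT3, CPT and CON, each axis starting at 0. The CON libraries lie above all AT3 and CPT libraries for Hspa1b, Hspb1 and Hsp90aa1 and below them for Bag3.

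Hsf1, the regulator itself, differed by small margins. Hsf1 (ENSMUSG00000022556, chr15:76477422-76501913, plus strand, on GRCm38 in the GENCODE M21 annotation, as are all gene positions, and protein-coding like all 10 genes) measured 7.78, 7.27 and 7.59 CPM in AT3, 8.09, 7.01 and 8.53 CPM in CPT, and 10.2, 8.71 and 9.34 CPM in CON. The AT3 and CPT libraries overlapped, and all 6 lay below the 3 CON libraries. For CPT against CON the log2 fold change was -0.26 ± 0.13 (SE, edgeR adjusted p = 0.085), with a 95% interval of -0.57 to 0.05. For AT3 against CON it was -0.32 ± 0.13 (edgeR adjusted p = 0.0344). That call was lost when any 1 of the AT3 libraries was left out (adjusted p = 0.0722, 0.119 and 0.0875 without replicates 1, 2 and 3), without CON replicate 1 (0.135) or 3 (0.0623) and without CPT replicate 1 (0.0798), and with DESeq2 (-0.27, adjusted p = 0.149). It passed in 6 of 15 count-based settings, and on log2(TPM + 1) the difference had the opposite sign (0.12, limma adjusted p = 0.473). HSF1 is controlled mostly through its protein, which was not measured here.

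The stress-inducible HSP70 genes were the members with the lowest levels, and Hspa1b was the one called lower in both CPT and AT3. Hspa1b (ENSMUSG00000090877, chr17:34956436-34959238, minus strand) measured 1.64, 1.57 and 1.29 CPM in AT3, 1.55, 2.18 and 2.96 CPM in CPT, and 6.29, 5.93 and 6.76 CPM in CON, from 36.09 to 151.48 estimated counts a library. All 6 AT3 and CPT libraries lay far below the CON libraries, and AT3 and CPT overlapped. The log2 fold change was -1.50 ± 0.21 for CPT against CON (edgeR adjusted p = 5.89e-06) and -2.07 ± 0.22 for AT3 against CON (edgeR adjusted p = 1.32e-07). Between AT3 and CPT it was -0.56 ± 0.23 (edgeR adjusted p = 0.171), with a 95% interval of -1.13 to 0.00.

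Hspa1a (ENSMUSG00000091971, chr17:34969190-34972156, minus strand) held only 5.2 to 18.29 estimated counts a library. It measured 0.295, 0.282 and 0.215 CPM in AT3, 0.177, 0.311 and 0.5 CPM in CPT, and 0.618, 0.275 and 1.01 CPM in CON, and the groups overlapped through CON replicate 2. Its log2 fold change was -0.90 ± 0.54 for CPT against CON and -1.20 ± 0.55 for AT3 against CON (edgeR adjusted p = 0.154 and 0.063). Without CON replicate 2 these became -1.31 and -1.60 (edgeR adjusted p = 0.0478 and 0.0179), and without CON replicate 3 they became -0.39 and -0.68 (0.61 and 0.358). Without CPT replicate 1, CPT against CON was -0.56 (edgeR adjusted p = 0.437). The transcripts of the 2 genes are near copies: 47.1% of the 100-base windows of Hspa1a also occur in Hspa1b, so how the reads were split between them is uncertain, and a protein-coding gene on the other strand, Gm20481, overlaps Hspa1a. Summed and tested as 1 gene, they gave -1.44 ± 0.21 for CPT against CON and -1.97 ± 0.22 for AT3 against CON (edgeR adjusted p = 1.01e-05 and 2.55e-07), and -0.53 ± 0.23 for AT3 against CPT (0.2).

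Hspa8 (ENSMUSG00000015656, chr9:40800984-40810087, plus strand), which folds new proteins and uncoats clathrin vesicles in unstressed cells, had its lowest values in CON. It measured 329, 362 and 357 CPM in AT3, 337, 399 and 327 CPM in CPT, and 317, 317 and 288 CPM in CON. All 6 AT3 and CPT libraries lay above the 3 CON libraries, and AT3 and CPT overlapped. The log2 fold change was 0.20 ± 0.10 for CPT against CON, 0.18 ± 0.10 for AT3 against CON and -0.02 ± 0.10 for AT3 against CPT (edgeR adjusted p = 0.0774, 0.107 and 0.938). None of the 3 passed, although the first passed without CPT replicate 1 (0.30, edgeR adjusted p = 0.0208) or 3 (0.27, 0.0281) and with DESeq2 (0.25, adjusted p = 0.0216), and on log2(TPM + 1) it was 0.81 (limma adjusted p = 0.0013). Without CPT replicate 2 it was 0.12 (edgeR adjusted p = 0.292), and it passed in 5 of 15 count-based settings. For AT3 against CON, DESeq2 gave 0.23 (adjusted p = 0.0288), and leaving out CPT replicate 1 gave 0.24 in edgeR (adjusted p = 0.0317).

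Part of the reads of Hspa8 may have been assigned to processed pseudogenes. Of its 100-base windows, 26.3% also occur in the pseudogene Gm15459, which was listed with 1075.56, 1468.63 and 1103.21 estimated counts in AT3, 422.46, 822.72 and 895.35 in CPT, and 265.25, 309.33 and 205.17 in CON. The 7 pseudogenes that share windows with Hspa8 took 9.71% to 11.3% of their sum with Hspa8 in AT3, 4.27% to 9.54% in CPT and 3.82% to 4.49% in CON. Adding them to Hspa8, an alternative chosen after seeing the data, gave a log2 fold change of 0.24 ± 0.10 for CPT against CON and 0.28 ± 0.10 for AT3 against CON (edgeR adjusted p = 0.0382 and 0.017). For AT3 against CPT it gave 0.04 (edgeR adjusted p = 0.882). Whether these counts come from Hspa8 transcripts was not tested.

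The make-up of the cytosolic HSP70 transcript pool differed between the treated groups and CON. Hspa1a and Hspa1b together took 0.349% ± 0.0572 of HSP70 TPM (Hspa8, Hspa1a and Hspa1b) in AT3, 0.504% ± 0.193 in CPT and 1.57% ± 0.249 in CON. The CON libraries, at 1.366% to 1.847%, lay above all CPT libraries (0.3594% to 0.723%) and all AT3 libraries (0.2891% to 0.403%). A two-sided exact permutation test gave p = 0.1 for CPT against CON and for AT3 against CON, the smallest it can give with 3 libraries a group, and p = 0.2 for AT3 against CPT, where the libraries overlapped. Being a share within each library, this value does not depend on the scaling between libraries.

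The partners of HSP70 showed smaller differences. Hsph1 (ENSMUSG00000029657, chr5:149614287-149636376, minus strand), the HSP110 nucleotide exchange factor, measured 6.86, 8.09 and 7.09 CPM in AT3, 6.71, 7.66 and 6.15 CPM in CPT, and 8.32, 8.28 and 8.39 CPM in CON. The AT3 and CPT values all lay below the narrow CON range, with log2 fold changes of -0.28 ± 0.13 for CPT against CON and -0.18 ± 0.13 for AT3 against CON (edgeR adjusted p = 0.073 and 0.236). Without CPT replicate 2 the first became -0.36 and passed (edgeR adjusted p = 0.0438). In TPM, by contrast, the 3 CON libraries were 1.38, 2.35 and 1.35, spread over the 1.87 to 2.27 TPM of AT3 and the 1.68 to 2.01 TPM of CPT.

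Dnajb1 (ENSMUSG00000005483, chr8:83608193-83612653, plus strand), the inducible J-domain protein HSP40, measured 9.35, 9.53 and 11.1 CPM in AT3, 8.87, 9.25 and 8.5 CPM in CPT, and 10.9, 9.77 and 9.29 CPM in CON. The CPT libraries were the lowest and overlapped neither AT3 nor CON. The log2 fold changes were -0.17 ± 0.12 for CPT against CON, 0.17 ± 0.12 for AT3 against CPT and 0.00 ± 0.12 for AT3 against CON (edgeR adjusted p = 0.24, 0.46 and 0.994). On log2(TPM + 1) Dnajb1 was higher by 0.49 in AT3 than in CON (limma adjusted p = 0.00653).

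Of the HSP90 genes, the stress-inducible one was lower by the wider margin. Hsp90aa1 (ENSMUSG00000021270, chr12:110690605-110702728, minus strand) measured 46.3, 50.6 and 49.5 CPM in AT3, 59.2, 66.9 and 44.8 CPM in CPT, and 80.6, 84 and 113 CPM in CON. The AT3 libraries were close to each other, CPT replicate 3 lay below them and the other CPT libraries above, and all 6 were below CON. The log2 fold change was -0.70 ± 0.15 for CPT against CON and -0.92 ± 0.15 for AT3 against CON (edgeR adjusted p = 0.000814 and 6.7e-05). These were -0.11 and -0.22 on log2(TPM + 1) and did not pass (limma adjusted p = 0.544 and 0.224). The 3 pseudogenes that share 100-base windows with Hsp90aa1 held at most 1.02 counts in a library.

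Hsp90ab1 (ENSMUSG00000023944, chr17:45567775-45573271, minus strand) measured 243, 248 and 253 CPM in AT3, 197, 209 and 252 CPM in CPT, and 264, 298 and 264 CPM in CON. CPT replicate 3 lay with the AT3 libraries, and CON lay above both groups. The log2 fold change was -0.33 ± 0.10 for CPT against CON (edgeR adjusted p = 0.00825). It passed in 14 of 15 count-based settings, with values from -0.43 to -0.20, but not without CPT replicate 1 (-0.20, 0.108). On log2(TPM + 1) it was 0.25 (limma adjusted p = 0.232), so neither the call nor its direction held on that scale. The median of all tested genes there was 0.29. For AT3 against CON the log2 fold change of Hsp90ab1 was -0.15 ± 0.10 (edgeR adjusted p = 0.188) and 0.52 on log2(TPM + 1) (limma adjusted p = 0.0213). Within the HSP90 pair, Hsp90aa1 took 12.8% ± 0.382 of the TPM in AT3, 16.5% ± 4.13 in CPT and 20.2% ± 3.9 in CON. Two-sided exact permutation tests gave p = 0.1 for AT3 against CON, 0.5 for CPT against CON and 0.4 for AT3 against CPT.

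Hspb1 (ENSMUSG00000004951, chr5:135887919-135889563, plus strand) encodes an ATP-independent chaperone that holds unfolding proteins and protects actin filaments, and it was lower in AT3 than in CPT and lower in CPT than in CON. It measured 2.36, 2.1 and 1.25 CPM in AT3, 3.04, 4.95 and 3.81 CPM in CPT, and 9.16, 10.3 and 10.5 CPM in CON, from 72, 67 and 35 estimated counts in AT3, 86, 159 and 99 in CPT, and 163, 262 and 186 in CON. The 3 groups did not overlap: AT3 was lowest and CON highest. CPT differed from CON by a log2 fold change of -1.34 ± 0.19 and AT3 from CON by -2.38 ± 0.21, a 5.2-fold lower level (edgeR adjusted p = 9.08e-06 and 1.23e-08). A processed pseudogene, Hsp25-ps1, shares 44% of the 100-base windows of Hspb1 and was listed with 0 counts in all 9 libraries.

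Bag3 (ENSMUSG00000030847, chr7:128523616-128546981, plus strand) was the only member called higher by edgeR on TMM-scaled counts, though other settings also called Hspa8, Dnajb1 or Hsp90ab1 higher, as given beside those genes. It encodes a nucleotide exchange factor that links HSP70 and small heat shock proteins to selective autophagy, and it is itself a known HSF1 target. It measured 9.35, 9.72 and 9.13 CPM in AT3, 8.2, 9.68 and 9.69 CPM in CPT, and 6.29, 6.12 and 7.21 CPM in CON. AT3 and CPT overlapped, and both lay above CON. The log2 fold change was 0.49 ± 0.13 for CPT against CON and 0.53 ± 0.13 for AT3 against CON (edgeR adjusted p = 0.00261 and 0.00136). It was 0.77 and 0.87 on log2(TPM + 1) (limma adjusted p = 0.000365 and 0.000128), the same direction. An unclassified transcript, 2610306O10Rik, overlaps Bag3 on the same strand, and its reads cannot be told apart there.

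**Figure D3:**
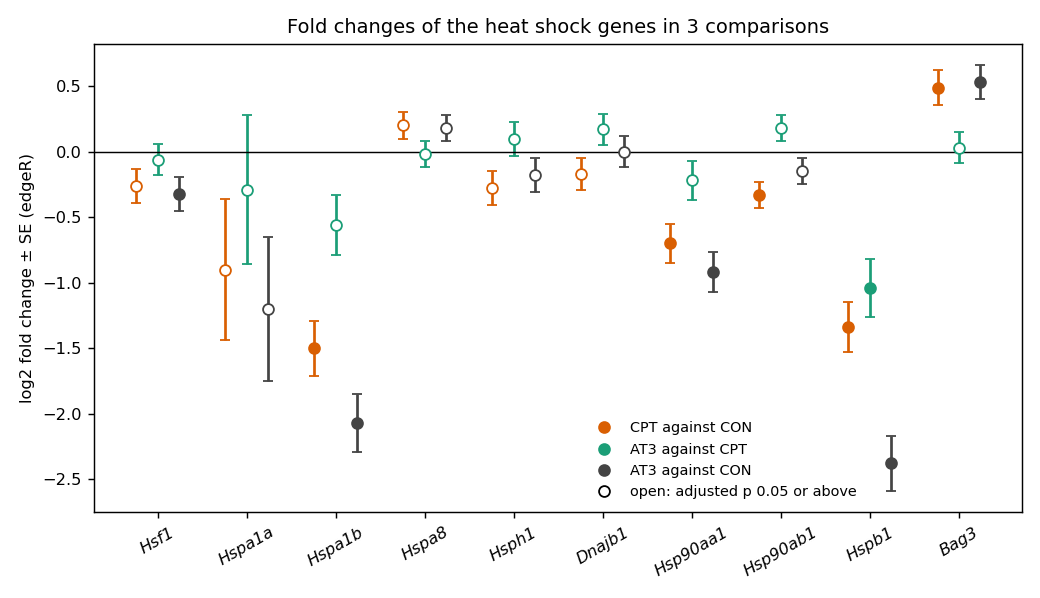
Log2 fold change ± SE (edgeR) of each gene for CPT against CON, AT3 against CPT and AT3 against CON, where filled points have an adjusted p below 0.05. Hspb1 is the only gene with a filled point for AT3 against CPT, at -1.04.

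AT3 against CPT compares groups that both carry the injury label, and 1 of the 10 genes was called. Hspb1 was 2.06-fold lower in AT3, at 1.91 ± 0.579 CPM, against 3.93 ± 0.962 CPM in CPT, a log2 fold change of -1.04 ± 0.22 with a 95% interval of -1.57 to -0.51 (edgeR adjusted p = 0.0095). Its size exceeded that of 97% of tested genes, and 4.84% of all tested genes were called in this comparison (2.33% lower), and 1 call among 10 genes is not far from that share. Of all tested genes, 0.665% were called with a change of at least 1 on the log2 scale, as Hspb1 was. The call was lost without CPT replicate 2, the highest CPT library (-0.83, edgeR adjusted p = 0.071), without AT3 replicate 3, the lowest of all (-0.82, 0.0578), and on log2(TPM + 1) (-0.76, limma adjusted p = 0.17). The AT3 and CPT values were fully apart for 2 of 10 genes, Hspb1 and Dnajb1, and for 27% of all tested genes.

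The direction of Hspb1 was away from CON: CPT was lower than CON, and AT3 lower again. The other 9 genes had AT3 against CPT log2 fold changes from -0.56 (Hspa1b) to 0.18 (Hsp90ab1). Their 95% intervals, which are wider than the test itself implies, leave room for moderate differences. For Bag3 the interval ran from -0.26 to 0.33, for Hspa8 from -0.26 to 0.22, for Hsp90aa1 from -0.58 to 0.13 and for Hspa1a from -1.68 to 1.09, so a lack of call does not show equal levels. The comparisons with CON share its 3 libraries and are therefore not independent of each other.

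AT3 against CON sets the AT3 livers beside untreated ones. Again 5 of the 10 genes were called, beside 64.3% of all tested genes (31.5% higher, 32.9% lower): Bag3 was higher, and Hspb1, Hspa1b, Hsp90aa1 and Hsf1 were lower, by 5.2-fold, 4.19-fold, 1.89-fold and 1.25-fold. The median log2 fold change of the 10 genes was -0.25 and that of all genes -0.04. Calls of at least 1 on the log2 scale were made for 2 of 10, Hspa1b and Hspb1, and for 32.2% of all genes. Values of AT3 and CON were fully apart for 8 of the 10 and for 70.3% of all genes.

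The scale changed what several of these values say. On log2(TPM + 1) Hspa8 and Bag3 were called higher and Hspa1b and Hspb1 lower in CPT than in CON, and Hsp90aa1 and Hsp90ab1 were not called. In AT3 against CON, Hspa8, Dnajb1, Hsp90ab1 and Bag3 were called higher and Hspa1b and Hspb1 lower on that scale. Hspb1, Hspa1b and Bag3 thus had the same direction and passed the threshold in both comparisons with CON on either scale. The TPM of the 10 genes summed to 327 ± 17 in AT3, 304 ± 34.2 in CPT and 216 ± 41.2 in CON, without overlap of either treated group with CON (two-sided exact permutation p = 0.1 each, the smallest possible). Hspa8 and Hsp90ab1 made up 89.9% ± 0.343 of that sum in AT3, 88.1% ± 0.748 in CPT and 81.9% ± 2.34 in CON, with no overlap between any groups (exact p = 0.1 in each comparison). Summed CPM, which is scaled between libraries by TMM and not corrected for length, ran from 655 to 699 in AT3, 630 to 716 in CPT and 714 to 749 in CON. Against CON, log2(TPM + 1) raised the fold changes of all tested genes by a median of 0.50 in CPT and 0.57 in AT3, relative to the CPM fit. The part of that shift in the higher TPM sums was not tested.

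**Figure D4:**
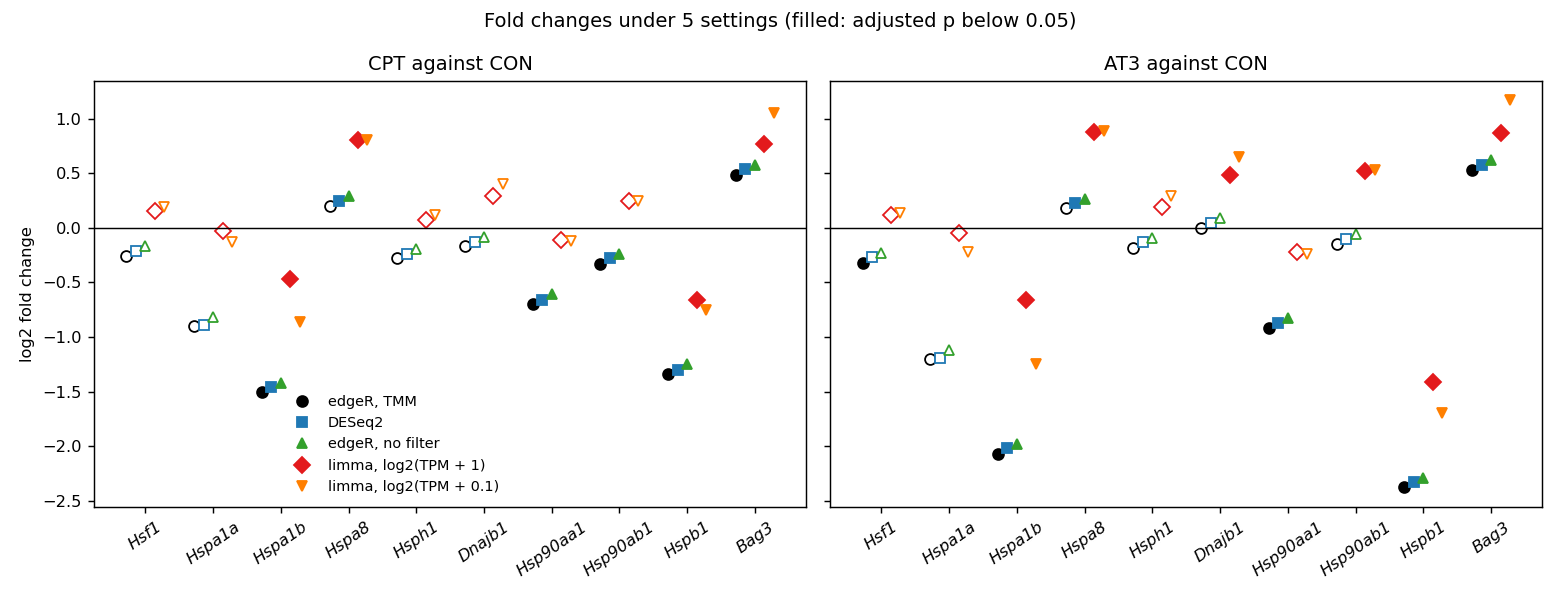
Log2 fold changes of the 10 genes for CPT against CON and AT3 against CON under 5 settings (edgeR with TMM, DESeq2, edgeR without a filter, and limma on log2(TPM + 1) and log2(TPM + 0.1)), with filled points at an adjusted p below 0.05. Hspa1b, Hspb1 and Bag3 keep their sign and stay filled in all 5, while Hsf1, Hsph1 and Hsp90ab1 lie below 0 in the count-based settings and above it on the TPM scale.

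Markers of other liver cells moved in the same comparisons. Of all tested genes, 30.8% were lower in CPT than in CON, 32.9% lower in AT3 than in CON and 2.33% lower in AT3 than in CPT. Of 12 sinusoidal endothelial markers 10 were lower in CPT than in CON, and the summed level of the list was 31.1 to 42.1 CPM in AT3, 28.2 to 38 CPM in CPT and 160 to 162 CPM in CON. In AT3 against CON 10 were lower and 1, Lyve1, was higher (log2 fold change 1.52, edgeR adjusted p = 0.00355). Of 12 stellate cell and fibroblast markers 11 were lower in CPT, with sums of 48.8 to 64.2 CPM in AT3, 71.7 to 80.9 CPM in CPT and 386 to 453 CPM in CON. In AT3 against CPT, 2 of these 12, Ecm1 and Colec11, were lower (log2 fold changes of -0.50 and -0.95, edgeR adjusted p = 0.00909 and 0.0262), and none of the 12 on log2(TPM + 1). Each of the 5 tested erythroid markers was lower in CPT than in CON, with sums of 38.4 to 44.5 CPM in AT3, 42.7 to 50.9 CPM in CPT and 798 to 908 CPM in CON. The sums hide an uneven fall: log2 fold changes for CPT against CON ran from -6.52 (Hbb-bs) to -8.5 (Hba-a2) in the globin genes, against -1.02 in Alas2. In bulk RNA, fewer cells of a type and less RNA per cell cannot be told apart, and the part of these cells in the lower Hspb1 and Hspa1b levels was not tested.

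Other marker lists moved less uniformly. The shares of all tested genes were 30% higher and 30.8% lower in CPT than in CON, and 2.33% lower in AT3 than in CPT. Of 12 Kupffer cell and macrophage markers, 2 were higher and 6 lower in CPT than in CON (4 and 4 on log2(TPM + 1)), with sums of 41.4 to 45.9 CPM in AT3, 33.9 to 49.6 CPM in CPT and 53.9 to 66.1 CPM in CON. Of 7 tested neutrophil markers, 6 were higher in CPT than in CON and 3 lower in AT3 than in CPT (7 and 0 on log2(TPM + 1)), with sums of 14 to 14.4 CPM in AT3, 25.2 to 52.8 CPM in CPT and 4.4 to 5.11 CPM in CON. Of 6 tested cholangiocyte markers 3 were lower in CPT than in CON, though none was lower and 1 higher on log2(TPM + 1), with sums of 23 to 26.4 CPM in AT3, 18.1 to 22.9 CPM in CPT and 17.5 to 22.6 CPM in CON. Both tested lymphocyte markers of a list of 10, Cd4 and Cd79a, were lower in AT3 and in CPT than in CON, and the list summed to 0.722 to 1.15 CPM in AT3, 0.692 to 1.02 CPM in CPT and 3.61 to 4.5 CPM in CON. On log2(TPM + 1) both were lower in CPT, but Cd4 was not called in AT3 against CON (-0.03, limma adjusted p = 0.787). The share of mitochondrial transcripts, given above, was also lower in AT3 and CPT than in CON. The part of these differences in the chaperone values was not tested.

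Across the 9 libraries, the profile of each gene (log2 CPM centred on its own mean) was compared with those of 11228 genes of at least 1 CPM by Euclidean distance, as a description. The nearest to Hspa1b were Des (0.548), which encodes the intermediate filament desmin and is on the stellate cell list, Plekho1 (0.599), Map3k12 (0.619), P3h3 (0.626) and Gucy1a1 (0.631). The nearest to Hspb1 were Rapgef4os2 (0.701), Gm32063 (0.772), Lst1 (0.841), P3h3 (0.847) and Sirpa (0.893). Bag3 lay nearest to Papola (0.151), Ywhah (0.163), Lmbrd1 (0.177), Spin1 (0.187) and Eif4g2 (0.189). No member was among the 5 nearest genes of any other member, though Hspa1a, with a mean below 1 CPM, was not among the genes searched. Among the 10, Hsph1 and Dnajb1 were the closest pair (0.425), Hspb1 and Bag3 the farthest (3.67), and Hspa1b lay nearer to Hspb1 (0.986) than to its near copy Hspa1a (1.74), whose counts are low.

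The wider HSF1 circuit was followed through gene lists. Of 11 other heat shock factors and HSF1 regulators, 4 were higher and 4 lower in CPT than in CON, and 3 higher and 4 lower in AT3 than in CON. These shares, 72.7% and 63.6% called, stand beside 60.8% and 64.3% of all tested genes. The counts were 6 higher and 1 lower in CPT and 6 higher and 2 lower in AT3 on log2(TPM + 1). Between AT3 and CPT, edgeR and DESeq2 called 0 of them, and 0 had an unadjusted p below 0.05. Hsf2, the factor of development that can form mixed trimers with HSF1, fell to 8.34 ± 1.26 CPM in CPT, against 22.4 ± 0.265 CPM in CON (log2 fold change -1.42 ± 0.12, edgeR adjusted p = 4.53e-09), and was at 8.91 ± 0.184 CPM in AT3 (-1.33 ± 0.12 against CON, edgeR adjusted p = 8.69e-09). It was lower on log2(TPM + 1) too, by -0.71 and -0.55. The coactivator gene Ppargc1a rose in CPT to 8.24 ± 2.29 CPM, against 2.51 ± 0.373 CPM in CON (log2 fold change 1.70 ± 0.20, edgeR adjusted p = 1.01e-06). The acetyltransferase gene Ep300 and the ubiquitin ligase gene Fbxw7 had log2 fold changes of -0.88 and -0.89 for CPT against CON, and neither passed there on log2(TPM + 1).

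Of 20 other HSF1 target genes, 9 were higher, 4 lower and 7 not called in CPT against CON, a share of 65% called beside 60.8% of all genes. This list shares genes with the other chaperone lists, so its counts partly repeat theirs. Hspb8, for example, is also counted with the small heat shock proteins and Fkbp4 with the HSP90 co-chaperones. Hspb8, the small heat shock protein that works with BAG3, rose to 319 ± 13.4 CPM in CPT, against 117 ± 11.4 CPM in CON (log2 fold change 1.45 ± 0.10, edgeR adjusted p = 1.65e-10), and was at 278 ± 11.8 CPM in AT3 (1.25 ± 0.09 against CON). The polyubiquitin gene Ubb rose to 1130 ± 70.4 CPM in CPT, against 444 ± 26 CPM in CON (log2 fold change 1.35 ± 0.10, edgeR adjusted p = 6.83e-10). Fkbp4, the HSP90 immunophilin FKBP52, fell to 50.7 ± 0.788 CPM in CPT, against 136 ± 2 CPM in CON (log2 fold change -1.43 ± 0.09, edgeR adjusted p = 6.32e-11). In AT3 against CON, 11 were higher and 4 lower. On log2(TPM + 1) the list had 13 higher and 3 lower in CPT and 13 higher and 2 lower in AT3, each against CON. In AT3 against CPT, edgeR and DESeq2 called 0 of 20, and 2 had an unadjusted p below 0.05.

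Small heat shock proteins differed among themselves. Of the 4 tested besides Hspb1, Hspb8 and Hspb11 were higher in CPT than in CON, Hspb6 lower and Cryab not called. Hspb6, an HSP20 protein of muscle and vessel walls, fell to 4.53 ± 0.229 CPM in CPT, against 11.7 ± 0.995 CPM in CON, and was at 4.16 ± 0.0993 CPM in AT3, a log2 fold change of -1.37 ± 0.13 for CPT and -1.49 ± 0.13 for AT3 against CON (edgeR adjusted p = 3.29e-08 and 8.77e-09). Hspb2, Hspb3 and Hspb7 had at most 8 counts in a library and were not tested. Hspb6 thus had the direction of Hspb1 and Hspb8 the opposite one, on CPM and on log2(TPM + 1).

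Other J-domain and HSP70 genes were mostly higher or not called, while the nucleotide exchange and quality control genes split. Of 15 J-domain proteins other than Dnajb1, 9 were higher in CPT than in CON and 11 in AT3 than in CON, beside 30% and 31.5% of all genes. None was called lower by edgeR or DESeq2 in either comparison (0 at an unadjusted p below 0.05), and on log2(TPM + 1) 13 and 15 were higher. Dnajc21, a J-protein of ribosome assembly, rose to 11.1 ± 0.364 CPM in CPT, against 3.79 ± 0.843 CPM in CON, and Dnajb6, which holds aggregation-prone proteins, to 38.9 ± 2.71 CPM in CPT, against 20.2 ± 0.521 CPM in CON (log2 fold changes 1.53 ± 0.15 and 0.94 ± 0.09). Of 7 tested HSP70 and HSP110 relatives 4 were higher in CPT than in CON, among them Hspa13 (1.56 ± 0.12) and the HSP110 gene Hspa4l (0.81 ± 0.12). In AT3 against CON 4 were higher and 1 lower, Hspa12b (-3.71 ± 0.75), at only 0.65 ± 0.207 CPM in CON. Of the 10 tested nucleotide exchange and quality control genes, 4 were higher in CPT than in CON, such as Bag5 (0.87 ± 0.14). The 3 lower ones included Bag6 (-0.59 ± 0.10) and St13 (-0.55 ± 0.10). In AT3 against CON 3 were higher and 4 lower. Each comparison with CON called 70% of this list, beside 60.8% of all tested genes in CPT and 64.3% in AT3. St13, which encodes the HSP70 cofactor HIP, did not hold its direction in CPT on log2(TPM + 1) (0.06). On that scale the list had 7 higher and 1 lower in each comparison with CON.

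The 19 HSP90 co-chaperones also split, 5 higher and 6 lower in CPT than in CON and 5 higher and 7 lower in AT3 than in CON, but 11 higher in each and 3 and 2 lower on log2(TPM + 1). The shares called, 57.9% in CPT and 63.2% in AT3 against CON, were near the 60.8% and 64.3% of all tested genes. Fkbp5, the immunophilin FKBP51 and a known glucocorticoid receptor target, had 156 ± 1.93 CPM in AT3, 106 ± 8.64 CPM in CPT and 8.93 ± 1.09 CPM in CON. It was higher in CPT than in CON by 3.56 ± 0.11 on the log2 scale (edgeR adjusted p = 5.94e-15) and higher in AT3 than in CPT by 0.57 ± 0.10 (edgeR adjusted p = 0.00215, limma on log2(TPM + 1) 0.0639), the only one of the 19 called between those groups. Its relative Fkbp4, given above, was lower in both treated groups. Fnip1, which encodes a partner of folliculin that slows HSP90, was lower in CPT than in CON by -1.36 ± 0.13, and Nudc higher by 0.95 ± 0.12.

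The remaining chaperone systems were counted the same way, and differences between lists were not tested. In CPT against CON, 60.8% of all tested genes were called (30% higher, 30.8% lower), and in AT3 against CON 64.3% (31.5% higher, 32.9% lower). In AT3 against CPT the share was 4.84% (2.51% higher, 2.33% lower). All 14 endoplasmic reticulum chaperones tested were higher in CPT than in CON, with a median log2 fold change of 1.56, and 13 of 14 were higher in AT3 than in CON. Hspa5 (BiP), their HSP70, had 367 ± 19.3 CPM in AT3, 409 ± 36 CPM in CPT and 82.6 ± 3.9 CPM in CON. In AT3 against CPT, 5 of these 14 were lower, among them Sdf2l1 (-0.60 ± 0.10) and Manf (-0.59 ± 0.10; edgeR adjusted p = 0.00168 and 0.00231). Of 12 mitochondrial chaperones and proteases 6 were higher and 4 lower in CPT than in CON, but 7 higher and 0 lower on log2(TPM + 1). Hspa9, the mitochondrial HSP70 gene, was at 229 ± 3.56 CPM in AT3, 170 ± 34.8 CPM in CPT and 57 ± 6.97 CPM in CON. Of 14 genes of the cytosolic chaperonin TRiC and of prefoldin, which folds and delivers actin and tubulin, 8 were higher in CPT than in CON, such as Cct4 (0.89 ± 0.11), and 3 lower, such as Pfdn6 (-0.84 ± 0.09), but 11 higher and 1 lower on log2(TPM + 1). Pfdn6 and Pfdn5 were lower in AT3 than in CPT (-0.47 and -0.30), though no gene of these 3 lists was called between AT3 and CPT on log2(TPM + 1).

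**Figure D5:**
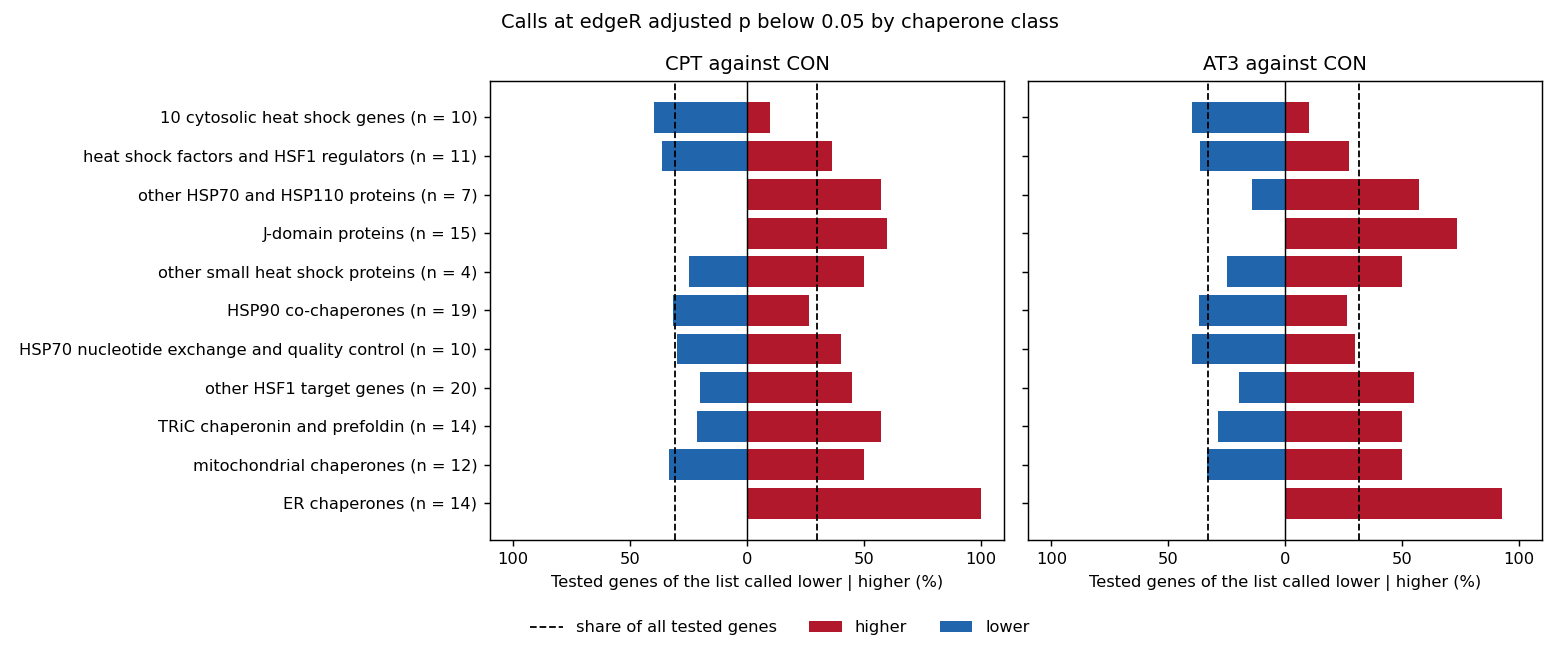
Share of the tested genes of each chaperone list called lower (left of 0) or higher (right of 0) at an edgeR adjusted p below 0.05, for CPT against CON and AT3 against CON, with dashed lines at the shares of all tested genes. All 14 endoplasmic reticulum chaperones are higher in CPT, while the 10 cytosolic heat shock genes have 1 higher and 4 lower in both comparisons. Some genes are on several lists, so the bars are not independent.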

How the data were processed

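Estimated counts and TPM, which is corrected for transcript length and library size, were deposited by the authors for 57010 genes in 9 libraries. No aligner or counter is named in those sources, and the submitters' processing notes name GRCm38, mm10 and GRCm39 without their roles. Per the labels, RNA was column-purified and made into mRNA libraries with a SMARTER kit, and whether strand was kept is not stated. Estimated counts were rounded, scaled by TMM and filtered with filterByExpr, which left 13686 genes. All 9 libraries were fitted in 1 quasi-likelihood model in edgeR 4.0.16 (R 4.3.3), with Benjamini-Hochberg adjustment over all tested genes and a threshold of 0.05. Log2 CPM used a prior count of 2. Alternatives were DESeq2 1.42.0, limma 3.58.1 on log2(TPM + 1) and log2(TPM + 0.1), other scalings and filters, a replicate block and leaving out each library. Summing Hspa8 with its pseudogenes was chosen after seeing the data. The edgeR fit was also run on simulated counts in which few genes changed, so that run does not test the scaling between groups. The 10 genes, the 20 gene lists and the rules for naming genes (list genes with the smallest p, with the printed ones picked from them after their values were seen) were chosen with earlier results of these data known. One hepatocyte marker of 10, Tf, was not matched. The authors' group-mean columns were not used. Promoters came from RefSeq and gene positions from GENCODE M21, matched by gene ID. Replicate libraries differed by more than counting noise (chi-square per degree of freedom 7.35 to 104). Libraries held 21485021 to 28480479 counts, so 3 counts correspond to 0.0934 to 0.169 CPM, which covers counting error only.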

Additional observations from a re-analysis of the deposited data

How the results depend on the processing

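Across alternatives, 466 gene-level fold changes kept their direction and their side of the threshold, 18 became called, 18 lost their call and 35 changed sign. Hspa1b, Hspb1 and Bag3 kept their calls against CON in every count-based alternative run and on both TPM scales. Sign changes came with TPM and, for genes such as Hspa1a and Dnajb1, also in count-based settings. With log2(TPM + 1), CPT against CON gave 0.16 for Hsf1, 0.07 for Hsph1, 0.29 for Dnajb1 and 0.25 for Hsp90ab1, and with log2(TPM + 0.1) 0.19, 0.12, 0.40 and 0.25. AT3 against CON gave 0.12, 0.19, 0.49 and 0.52 for these genes with the first pseudocount and 0.14, 0.29, 0.65 and 0.53 with the second. The log2(TPM + 1) scale raised the fold changes of all genes against CON by a median of 0.50 in CPT and 0.57 in AT3, and called 6631 genes higher and 1604 lower in CPT and 7017 higher and 1698 lower in AT3. Dnajb1 in AT3 against CON, near 0 in edgeR, was 0.05 with DESeq2, 0.02 with DESeq2 size factors, 0.09 without a filter, 0.02 with only the 6 libraries compared and 0.04 without mitochondrial and the 10 most abundant genes. Hspa8 in AT3 against CPT was 0.07 on both TPM scales and 0.04 when summed with its pseudogenes.

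AT3 against CPT depended most on the settings. Its count over all genes, 662, became 1138 without a filter, 45 and 32 with the 2 TPM pseudocounts, and 209 to 1407 with 1 library left out, the highest without CPT replicate 3 and the lowest without AT3 replicate 1. Of the members, 0 were called on either TPM scale and 0 to 1 with 1 library left out. Leaving out 1 library gave AT3 against CPT ranges of -0.14 to 0.00 for Hsf1, -0.59 to 0.10 for Hspa1a, -0.07 to 0.07 for Hspa8 and -0.04 to 0.08 for Bag3, and -0.06 to 0.07 for Dnajb1 in AT3 against CON. The cause was not tested. Same-numbered libraries did not deviate together (correlations -0.0378 to 0.0762), so the numbers were not taken as pairs. A replicate block gave 8172, 511 and 8665 calls for CPT against CON, AT3 against CPT and AT3 against CON, and changed no member's call. Hspa1a, with 5.2 to 18.29 counts a library, was limited by depth.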

Other observations

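Immediate early genes, which respond to many stresses within a short time and are not heat shock genes, were counted as well. Of 15 tested, 12 were higher and 3 lower in CPT than in CON (edgeR adjusted p below 0.05), and 12 were higher and 2 lower in AT3 than in CON. Of all tested genes, 30% were higher and 30.8% lower in CPT, and 31.5% higher and 32.9% lower in AT3, each against CON. On log2(TPM + 1) the list had 12 higher and 1 lower in CPT and 13 higher and 1 lower in AT3. Btg2, an antiproliferative p53 target, had 124 ± 5.11 CPM in AT3, 97.2 ± 28.5 CPM in CPT and 0.917 ± 0.281 CPM in CON. Junb, a subunit of AP-1, had 46.5 ± 0.871 CPM in AT3, 57.5 ± 0.999 CPM in CPT and 5.69 ± 0.905 CPM in CON. Dusp1, Klf2 and Myc were the 3 that were lower in CPT than in CON, by log2 fold changes of -1.03, -1.17 and -0.79, and Dusp1 and Klf2 were also lower in AT3 than in CON (-0.99 and -1.50). On log2(TPM + 1) Klf2 and Myc were not called in CPT against CON (limma adjusted p = 0.0943 and 0.861). Dusp1 was not called in AT3 against CON on that scale (0.113). Between AT3 and CPT, edgeR called 0 of the 15, with 5 at an unadjusted p below 0.05, beside 4.84% of all tested genes called. DESeq2 called 2, and edgeR without a filter called 3 higher. On log2(TPM + 1) 1 was called, Nr4a1 (1.33, limma adjusted p = 0.0451).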
